A study of Mus musculus with 12 samples.

Results

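Homeostatic microglia genes are transcripts that resting microglia, the resident macrophages of the brain, express at a high level, and most of them are used as markers that separate microglia from other macrophages. The 9 genes described here are P2ry12, P2ry13, Gpr34, Csf1r, Siglech, Selplg, Tmem119, Olfml3 and Sall1. They were taken by symbol from a table of 25124 genes. All 9 passed the expression filter that left 17612 genes for testing. RNA sequencing was done on bulk mouse brain tissue at day 28 after MCAo, a blockage of the middle cerebral artery that causes an ischemic stroke. The series asked what the Wnt antagonist dickkopf-1 (DKK1) does after stroke. The 4 groups were the ipsilateral (lesioned) and contralateral (intact) hemisphere of wild-type mice (C57BL6/J) and of DKK1 mice, with 3 libraries each. DKK1 mice carried an rtTA activator with EGFP at ROSA26, tetO-Dkk1 at Hprt and a TCF/Lef1-lacZ reporter transgene. Every mouse, wild type included, had MCAo and received doxycycline (200 mg/kg), and induction began at day 3. The genotype label names no cell type to which the activator is restricted, and no group carried the transgenes without doxycycline, so induced DKK1 and the other DNA of these mice cannot be told apart.

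Microglia depend on signals from the tissue around them. The growth factors CSF1 and IL-34 act on the receptor Csf1r and keep microglia alive, transforming growth factor beta (TGF-beta) maintains the homeostatic state, and the transcription factor Sall1 keeps microglial identity. P2ry12 senses nucleotides that leak from injured cells and directs the movement of microglial processes. After injury or in disease, reactive microglia are known to lower P2ry12, Tmem119 and related genes and to raise a set that includes Apoe and Trem2. Csf1r and Selplg are also expressed by blood monocytes and other leukocytes, and Siglech by plasmacytoid dendritic cells.

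The sequences upstream of 4 members are shown because, among the 5 members with a start-site entry, these had the smallest (Siglech, P2ry12) and the largest (P2ry13, Olfml3) differences between hemispheres. Each is the 250 bases before the annotated start, read 5′ to 3′ in the direction of transcription (RefSeq, GRCm38.p6, the same build as mm10). Capitals mark GAGGAA, the core that the myeloid factor PU.1 prefers, or GGAAGT, a core of the ETS family to which PU.1 belongs, on either strand. The end of the first can overlap the start of the second.
Siglech (chr7:55767934-55768183, strand plus): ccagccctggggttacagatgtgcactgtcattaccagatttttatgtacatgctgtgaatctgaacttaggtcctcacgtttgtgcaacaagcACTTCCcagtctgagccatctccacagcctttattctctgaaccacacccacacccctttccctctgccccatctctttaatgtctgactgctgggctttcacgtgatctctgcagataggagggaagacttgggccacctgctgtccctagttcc
P2ry12 (chr3:59262986-59263235, strand minus): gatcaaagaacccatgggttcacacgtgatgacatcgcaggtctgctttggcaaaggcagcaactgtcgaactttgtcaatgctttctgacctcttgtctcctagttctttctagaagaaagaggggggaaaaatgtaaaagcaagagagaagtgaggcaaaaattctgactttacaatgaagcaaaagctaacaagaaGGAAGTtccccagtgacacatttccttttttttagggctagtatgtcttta
P2ry13 (chr3:59210883-59211132, strand minus): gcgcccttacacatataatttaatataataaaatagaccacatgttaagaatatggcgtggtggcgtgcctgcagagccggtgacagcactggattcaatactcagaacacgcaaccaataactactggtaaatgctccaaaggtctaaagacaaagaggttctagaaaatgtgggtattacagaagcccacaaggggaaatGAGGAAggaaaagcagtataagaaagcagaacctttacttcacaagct
Olfml3 (chr3:103738002-103738251, strand minus): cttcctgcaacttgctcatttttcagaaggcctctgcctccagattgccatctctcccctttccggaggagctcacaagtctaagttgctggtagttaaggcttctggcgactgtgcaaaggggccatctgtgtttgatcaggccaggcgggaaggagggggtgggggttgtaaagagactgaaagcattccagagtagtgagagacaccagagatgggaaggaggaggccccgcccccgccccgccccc
GAGGAA lay in 23.3% and GGAAGT in 19.7% of 32851 promoter windows of this length. P2ry12 had GGAAGT with its first base 51 bases before the start, P2ry13 had GAGGAA 48 bases before it, and Siglech had GGAAGT on the opposite strand 156 bases before it. Neither run of letters is in the Olfml3 window. The start-site table matched 5 of the 9 members, the fifth being Sall1.

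Total counts per library ran from 21209920 to 26911840. No label ties a library to its own animal. The p-values therefore rest on library-to-library spread, which may be technical. Library 1 stood apart in both wild-type groups. It had the highest level of 9 of the 9 members among the 3 libraries in each of 3 groups: wild-type contralateral, wild-type ipsilateral and DKK1 contralateral. The mean log2 deviation of the members from the group mean was 0.41 in wild-type contralateral 1 and 0.40 in wild-type ipsilateral 1. The other 10 libraries lay between −0.25 and 0.29. Levels are in CPM (read counts scaled to the size of each library, after TMM), differences are given as log2 fold change with the standard error of the edgeR fit, and adjusted p-values are edgeR's over all genes tested unless another tool is named.

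Most of the homeostatic genes were higher in the lesioned hemisphere of both genotypes, and none fell. In wild-type mice 7 of the 9 rose (edgeR adjusted p under 0.05), against 21.2% of all tested genes that rose. In DKK1 mice 8 of the 9 rose, against 27.5%. Of all genes called in wild-type mice 57.1% were higher in the lesion, and 70.1% by limma on the deposited TPM. The median difference of the 9 members was 1.09 in wild-type and 1.39 in DKK1 mice on the log2 scale, where the median of all tested genes was 0.0064 and 0.012. The rise was uneven: Olfml3 and Gpr34 rose most and P2ry12 and Siglech had the smallest differences. In bulk tissue, more cells of a type and more RNA per cell cannot be told apart.

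**Figure D1:**
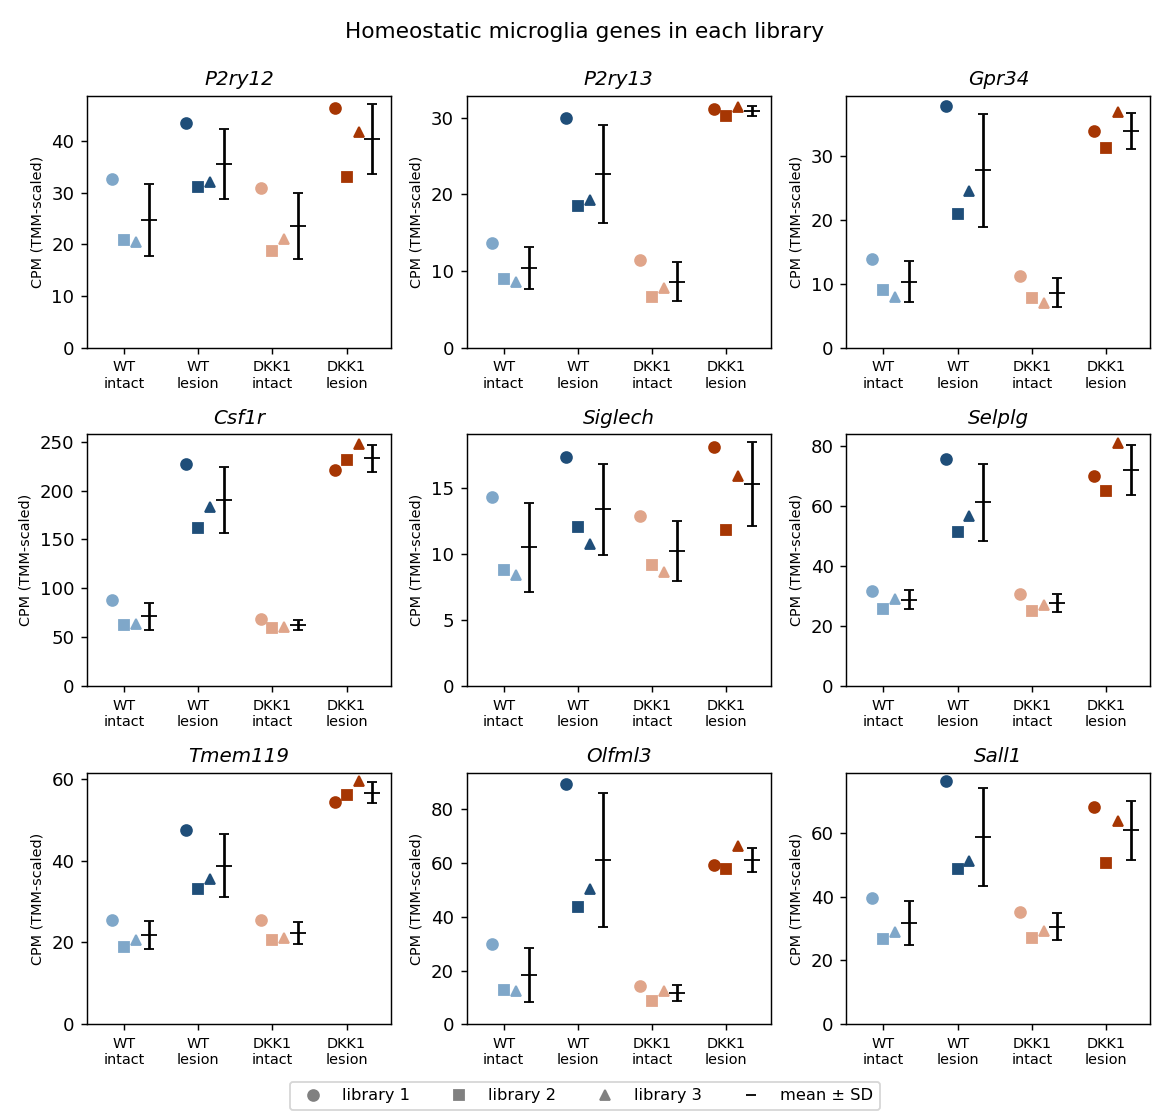
Level of each of the 9 genes (CPM, TMM-scaled, axes from 0) in each of the 12 libraries; marker shape gives the library number and the bar the mean ± SD of 3 libraries. In wild-type lesions library 1 lies above the other 2 for every gene, and Siglech overlaps between the hemispheres of both genotypes.

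The nucleotide receptors came first among the surface receptors. P2ry12 (chromosome 3, 59216271 to 59262985, mm10, minus strand), the ADP receptor that guides microglial processes, stood at 32.7, 20.9 and 20.5 CPM in wild-type contralateral libraries 1 to 3 and at 43.4, 31.1 and 32.1 CPM in the ipsilateral ones. Contralateral library 1 was above ipsilateral libraries 2 and 3, so the hemispheres overlapped. In DKK1 mice the values were 30.8, 18.8 and 21.1 CPM (contralateral) and 46.4, 33.0 and 41.7 CPM (ipsilateral), with no overlap. P2ry12 did not pass in wild-type mice (0.52 ± 0.23, adjusted p = 0.0945) and rose 1.72-fold in DKK1 mice (0.78 ± 0.23, adjusted p = 0.0148). With the replicate number as a block within genotype it passed in wild-type mice too (0.54 ± 0.08, adjusted p = 3.95e-04), as it did without wild-type contralateral 1 (0.78, adjusted p = 0.0194). The call in DKK1 mice was lost without DKK1 contralateral 2 (adjusted p = 0.0693), DKK1 contralateral 3 (0.0635) or DKK1 ipsilateral 1 (0.0554).

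P2ry13, a second ADP receptor of the same family, lies 5388 bases from P2ry12 on the same strand (chromosome 3, 59207894 to 59210882). It stood at 13.6, 8.98 and 8.61 CPM in wild-type contralateral and 30.0, 18.5 and 19.3 CPM in wild-type ipsilateral libraries. In DKK1 mice it stood at 11.5, 6.64 and 7.76 CPM (contralateral) and 31.1, 30.2 and 31.4 CPM (ipsilateral). Neither genotype showed overlap, and the 3 DKK1 lesions lay close together. P2ry13 rose 2.17-fold in wild-type (1.12 ± 0.24, adjusted p = 0.00438) and 3.59-fold in DKK1 mice (1.85 ± 0.24, adjusted p = 1.09e-04). P2ry12 and P2ry13 both lie within the span of Med12l, a gene of the opposite strand. Whether strand was used in counting is not given in the sources used here. Each count column header carries the word flip except that of wild-type ipsilateral 1, and every TPM header carries it. The meaning of that word is not given either. Med12l was at 70.1 ± 4.53 and 68.5 ± 3.39 CPM in the wild-type intact and lesioned hemispheres (SD, n = 3), and it fell by 0.29 in DKK1 lesions (from 68.2 ± 2.74 to 55.7 ± 3.64 CPM, adjusted p = 0.00304), the opposite direction to both receptors. P2ry14, the UDP-sugar receptor of the same cluster, rose in both genotypes (0.75 ± 0.18 and 0.88 ± 0.18; chosen after its values were seen).

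Gpr34, a lysophosphatidylserine receptor (chromosome X, 13632769 to 13640858, plus strand), stood at 13.95, 9.10 and 7.89 CPM in wild-type contralateral and 37.8, 20.96 and 24.5 CPM in wild-type ipsilateral libraries. In DKK1 mice it stood at 11.2, 7.75 and 6.97 CPM (contralateral) and 33.9, 31.2 and 36.8 CPM (ipsilateral). No lesioned library overlapped the intact ones of its genotype. Gpr34 rose 2.68-fold in wild-type (1.42 ± 0.26, adjusted p = 0.00172) and 3.94-fold in DKK1 mice (1.98 ± 0.26, adjusted p = 1.13e-04). It lies inside the span of Cask on the opposite strand, a synaptic scaffold gene that fell in DKK1 lesions (−0.31 ± 0.10) and did not pass in wild-type ones (−0.25 ± 0.10, adjusted p = 0.0605).

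Csf1r, the receptor for CSF1 and IL-34 (chromosome 18, 61105572 to 61131139, plus strand), was the most abundant member per transcript length. The deposited TPM was 26.7 ± 5.62 in the wild-type intact and 73.7 ± 13.5 in the wild-type lesioned hemisphere (SD, n = 3). In counts scaled to CPM, wild-type libraries held 87.5, 62.8 and 63.9 on the intact and 227, 161 and 183 on the lesioned side. DKK1 libraries held 68.9, 59.3 and 60.1 CPM on the intact and 221, 231 and 248 CPM on the lesioned side. The hemispheres were far apart in both genotypes. Csf1r rose 2.67-fold in wild-type (1.41 ± 0.14, adjusted p = 5.19e-05) and 3.72-fold in DKK1 mice (1.90 ± 0.14, adjusted p = 3.10e-06), the smallest adjusted p of the 9 members in each genotype. Its ligands went different ways: Csf1 rose in both genotypes (1.56 ± 0.15 and 1.84 ± 0.15). Il34, the ligand that neurons make, fell in wild-type lesions (−0.40 ± 0.09, adjusted p = 0.00409) and did not pass in DKK1 lesions (−0.19 ± 0.09, adjusted p = 0.0882). The difference between these responses of Il34 was itself 0.21 ± 0.12 (adjusted p = 0.605).

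Siglech, a sialic acid-binding lectin of microglia (chromosome 7, 55768184 to 55778925, plus strand), had the smallest difference. It stood at 14.4, 8.76 and 8.40 CPM in wild-type contralateral and 17.3, 12.04 and 10.8 CPM in wild-type ipsilateral libraries. In DKK1 mice it stood at 12.9, 9.18 and 8.67 CPM (contralateral) and 18.2, 11.8 and 15.9 CPM (ipsilateral). The hemispheres overlapped in both genotypes, through contralateral library 1 each time. Siglech passed in neither genotype (0.35 ± 0.26, adjusted p = 0.316 in wild-type and 0.58 ± 0.26, adjusted p = 0.0806 in DKK1 mice). It passed in both with the replicate block (0.36 ± 0.11, adjusted p = 0.0224, and 0.58 ± 0.11, adjusted p = 0.00116). With that block 9 of the 9 members were higher in each genotype, against 25.2% of tested genes in wild-type and 30.5% in DKK1 mice. Siglech in DKK1 mice also passed when only the DKK1 groups were fitted (adjusted p = 0.037), without DKK1 ipsilateral 2 (0.0492), without wild-type contralateral 1 (0.0424) and without library 1 of both wild-type groups (0.017).

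Selplg, the ligand of P-selectin also known as PSGL-1 (chromosome 5, 113817798 to 113830501), and Tmem119, a membrane protein used as a marker of resident microglia (chromosome 5, 113793729 to 113800396), are neighbours on the minus strand, 17401 bases apart. Selplg stood at 31.8, 25.7 and 28.8 CPM in wild-type contralateral and 75.4, 51.3 and 56.5 CPM in wild-type ipsilateral libraries. In DKK1 mice its values were 30.8, 24.8 and 26.98 CPM (contralateral) and 69.9, 65.0 and 80.9 CPM (ipsilateral). It rose 2.12-fold (1.09 ± 0.14, adjusted p = 2.49e-04) and 2.62-fold (1.39 ± 0.15, adjusted p = 2.06e-05) in wild-type and DKK1 mice. Tmem119 stood at 25.5, 18.98 and 20.6 CPM in wild-type contralateral and 47.5, 33.0 and 35.6 CPM in wild-type ipsilateral libraries. In DKK1 mice it stood at 25.4, 20.5 and 21.2 CPM (contralateral) and 54.3, 56.1 and 59.5 CPM (ipsilateral), so every DKK1 lesion was above every wild-type lesion. Tmem119 rose 1.78-fold in wild-type (0.83 ± 0.14, adjusted p = 0.00127) and 2.54-fold in DKK1 mice (1.34 ± 0.14, adjusted p = 2.32e-05). Neither gene overlapped between hemispheres.

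Olfml3, a secreted olfactomedin-like matrix glycoprotein (chromosome 3, 103735394 to 103738001, minus strand), had the largest difference between hemispheres and the largest standard error. It stood at 30.0, 12.8 and 12.3 CPM in wild-type contralateral and 89.6, 43.5 and 50.3 CPM in wild-type ipsilateral libraries. In DKK1 mice it stood at 14.3, 8.53 and 12.4 CPM (contralateral) and 59.2, 57.8 and 66.2 CPM (ipsilateral). Library 1 of each wild-type group was far above the other 2, yet the hemispheres did not overlap. Olfml3 rose 3.31-fold in wild-type (1.73 ± 0.36, adjusted p = 0.00374) and 5.22-fold in DKK1 mice (2.38 ± 0.37, adjusted p = 3.61e-04). Sall1, a zinc-finger transcription factor that maintains microglial identity (chromosome 8, 89027243 to 89044162, minus strand), stood at 39.6, 26.8 and 28.8 CPM in wild-type contralateral and 76.4, 48.7 and 51.1 CPM in wild-type ipsilateral libraries. In DKK1 mice its values were 35.2, 27.1 and 29.4 CPM (contralateral) and 68.1, 50.6 and 63.8 CPM (ipsilateral). Sall1 rose 1.85-fold (0.89 ± 0.20, adjusted p = 0.00539) and 1.99-fold (0.99 ± 0.20, adjusted p = 0.00162). Over the 9 members, 7 were higher in every lesioned than in every intact library of wild-type mice, and 8 in DKK1 mice, against 26.5% and 32.1% of tested genes.

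**Figure D2:**
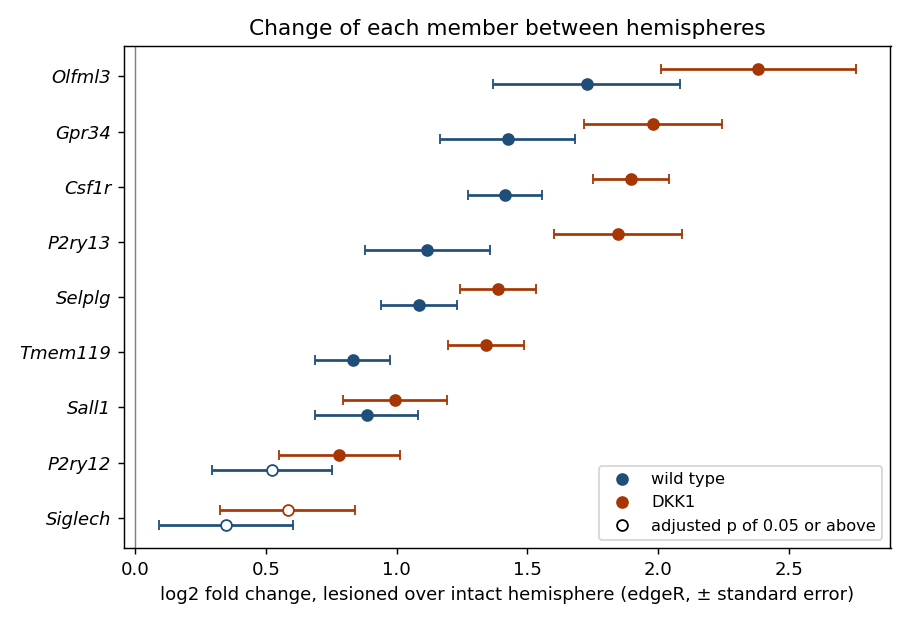
Log2 fold change (± standard error, edgeR) of each gene, lesioned over intact hemisphere, in wild-type and DKK1 mice, ordered by the sum of both; open symbols have an adjusted p of 0.05 or above. Values run from 0.35 for Siglech to 1.73 for Olfml3 in wild-type mice and from 0.58 to 2.38 in DKK1 mice.

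The order of the members was tested through the log2 ratio of 2 members within each library, compared between hemispheres by an exact two-sided permutation test within genotype, a test added after seeing the data. All 36 pairs were tested, with 400 regroupings each. The smallest p this can give is 0.005, and the adjusted values cover the 36 pairs. The ratio differed between hemispheres for 31 pairs (adjusted p 0.0072 to 0.0406). Pairs of other genes were not tested, so this count cannot be called particular to the members. The pairs share members and are not separate observations. Siglech and Olfml3 were farthest apart, by 1.62 on the log2 scale averaged over genotypes (1.42 in wild-type and 1.82 in DKK1 mice, adjusted p = 0.0072). The 5 pairs that did not pass were Gpr34 with Olfml3 (adjusted p = 0.0506), P2ry13 with Selplg (0.109), P2ry13 with Csf1r (0.154), Tmem119 with Sall1 (0.19) and Csf1r with Gpr34 (0.635). When hemispheres were exchanged only within a replicate number and genotype (64 sign changes, smallest possible p 0.03125, exact and two-sided), 30 of the 36 pairs passed, each at an adjusted p of 0.0375. Gpr34 with Olfml3 then passed, while P2ry13 with Gpr34 (0.132) and Tmem119 with Selplg (0.0726) no longer did. Under both tests P2ry12 and Siglech differed from each of the other 7 members and from each other.

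Per transcript length, Csf1r and Tmem119 stood above Siglech and P2ry13 on the intact side. In the deposited TPM of the wild-type intact hemisphere the order was Csf1r (26.7 ± 5.62), Selplg (15.9 ± 1.92), Olfml3 (15.4 ± 8.66), P2ry12 (15.0 ± 4.46), Tmem119 (14.8 ± 2.54), Sall1 (8.71 ± 2.02), Gpr34 (7.86 ± 2.55), Siglech (6.25 ± 2.06) and P2ry13 (5.95 ± 1.68; SD, n = 3). Neighbours from Selplg to Tmem119, and from Sall1 to P2ry13, lay within 1 SD of each other. In DKK1 lesions the TPM order was Csf1r (87.5 ± 5.92), Olfml3 (51.0 ± 4.32), Selplg (39.95 ± 4.99), Tmem119 (38.6 ± 2.12), Gpr34 (25.9 ± 2.43), P2ry12 (24.5 ± 4.37), P2ry13 (17.7 ± 0.54), Sall1 (16.7 ± 2.61) and Siglech (9.05 ± 1.97). P2ry12 was close to Tmem119 in level on the intact side and below it in this group. For P2ry12 and Siglech the TPM table holds another transcript than the count table.

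Other genes of the homeostatic program moved the same way. Of 25 further homeostatic microglia genes, 20 rose and 1 fell in wild-type lesions (median 1.36), and 20 rose and 1 fell in DKK1 lesions (median 1.73). The fractalkine receptor Cx3cr1 rose from 53.2 to 149 CPM in wild-type (1.48 ± 0.27) and from 49.8 to 182 CPM in DKK1 mice (1.87 ± 0.27). The anion transporter Slco2b1 rose by 1.62 ± 0.14 and 2.14 ± 0.14. The integrin subunit Itgb5 rose by 1.53 ± 0.15 and 1.95 ± 0.15. Mef2c, a transcription factor that neurons also express, was the member that fell in both genotypes (−0.44 ± 0.11 and −0.49 ± 0.11; chosen after its values were seen).

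Factors that set the myeloid program also rose. Of 8 lineage transcription factors 7 rose in each genotype (median 1.98 and 2.61), among them Spi1, which encodes PU.1 (2.76 ± 0.25 and 3.40 ± 0.25), Runx1 (3.18 ± 0.28 and 4.20 ± 0.29), Ikzf1 (2.22 ± 0.21 and 2.75 ± 0.22) and Cebpa (1.75 ± 0.14 and 2.47 ± 0.15). Of 9 genes of the TGF-beta input, 4 rose and 1 fell in each genotype (median 0.0027 and 0.039). The 4 were the ligand Tgfb1 (2.45 ± 0.26 and 2.97 ± 0.27), its receptors Tgfbr1 (1.55 ± 0.17 and 2.06 ± 0.17) and Tgfbr2 (1.66 ± 0.19 and 2.38 ± 0.20), and Nrros, which helps microglia to activate the ligand (1.65 ± 0.18 and 2.24 ± 0.18). Of 14 ligands and partners of the members, 11 rose and 2 fell in wild-type, and 11 rose and 1 fell in DKK1 lesions. Those that rose include the ATP channels P2rx7 (1.37 ± 0.12 and 1.69 ± 0.12) and P2rx4 (1.34 ± 0.17 and 2.06 ± 0.17) and the signalling adaptor Tyrobp (2.23 ± 0.21 and 2.80 ± 0.22).

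General myeloid genes and genes of reactive microglia rose as well, with medians above the 1.09 and 1.39 of the 9 members. Of 14 pan-myeloid genes 13 rose in wild-type (median 2.29) and 14 in DKK1 lesions (median 2.98), with C1qa, a chain of complement C1q, at 2.24 ± 0.16 and 3.01 ± 0.16, Ptprc (CD45) at 3.44 ± 0.26 and 4.45 ± 0.28, and Aif1 (Iba1) at 2.10 ± 0.32 and 2.39 ± 0.32. Of 18 disease-associated microglia genes 18 rose in each genotype (median 1.78 and 2.56), with the lipid carrier Apoe at 1.46 ± 0.12 and 1.99 ± 0.12 and the lipid receptor Trem2 at 2.705 ± 0.28 and 3.58 ± 0.29. The 14 markers of border macrophages and monocytes rose in part: 12 in each genotype, and their summed level went from 45.5 to 54.7 CPM in wild-type intact libraries to 166 to 273 CPM in wild-type lesions, and from 43.4 to 49.2 to 252.5 to 333 CPM in DKK1 mice. Of 12 lymphocyte markers 10 were tested, and 9 rose and 1 fell in each genotype. The lymphocyte markers summed to 33.7 to 51.6 CPM in wild-type intact and 58.02 to 58.8 CPM in wild-type lesioned libraries. In DKK1 mice they summed to 36.9 to 43.2 and 105 to 160 CPM. Cd4 made up most of the intact sums and was the 1 that fell (named after its values were seen). It went from 41.4 to 14.9 CPM in wild-type and from 38.5 to 18.8 CPM in DKK1 mice. The sums therefore understate the rise of the other lymphocyte markers. Of 8 neutrophil markers the 4 tested rose in each genotype, and the 8 summed to 9.60 to 16.1 CPM over all intact and 63.2 to 123 CPM over all lesioned libraries. Csf3r made up most of that sum (14.03 and 69.5 CPM in wild-type intact and lesioned, 10.5 and 95.4 CPM in DKK1 tissue; named after its values were seen), and Ly6g was at 0 in 3 of the 4 group means. Of 8 plasmacytoid dendritic cell markers 7 were tested, of which 4 rose and 1 fell in each genotype. Some markers were near 0 in intact tissue and could pass the expression filter only through the lesioned groups. Examples are Cxcr2 (0.042 and 0 CPM in wild-type and DKK1 intact tissue), Ms4a1 (0.080 and 0.016 CPM) and Plac8 (0.24 and 0.043 CPM). For such neutrophil, lymphocyte and monocyte markers the filter set the direction in part, so these counts of tested markers are no separate support. The lymphocyte genes Trac and Trbc2 were not analysed here. None of the other listed markers was at 0 in every library. Neuron markers went the other way: 6 of 8 fell in wild-type and 8 of 8 in DKK1 lesions. Of the astrocyte markers 4 of 7 rose in wild-type, and 5 rose and 1 fell in DKK1 lesions. Of the 7 oligodendrocyte markers 5 rose in each genotype, and of the 6 endothelial markers 2 rose in wild-type and 3 in DKK1 lesions. The part of these other cells in the members' levels was not tested.

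Set against the mean log2 level of the 14 pan-myeloid genes in the same library, most members were lower in the lesion; these ratios are a description, with no test. The ratio was lower in every lesioned than in every intact library for 9 of 9 members in wild-type and 8 of 9 in DKK1 mice, against 92.8% and 94.2% of all tested genes. The pan-myeloid genes themselves rose, so these counts are near the background and the ratios serve only to set members beside each other. Siglech went from −0.59, −0.60 and −0.72 in wild-type intact libraries to −2.54, −2.32 and −2.74 in wild-type lesions. P2ry12 went from 0.59, 0.64 and 0.56 to −1.22, −0.96 and −1.18. The mean shift ran from −0.47 for Olfml3 to −1.90 for Siglech in wild-type mice, and from −0.49 to −2.32 in DKK1 mice. For Olfml3 the highest wild-type lesion and the lowest wild-type intact library were both at −0.18. The count depended on the gene used as the reference. Relative to Aif1 it was again 9 and 8 (all tested genes 89.5% and 90.6%), and relative to Cx3cr1 it was 5 in wild-type and 5 in DKK1 mice (all tested genes 80% and 87.3%). Siglech, P2ry12, Sall1 and Tmem119 were lower in both genotypes against each of the 3 references, as most tested genes were against each one. Aif1 is itself 1 of the 14 pan-myeloid genes, so it is no separate reference. In DKK1 mice Olfml3 was higher in every lesioned library relative to Cx3cr1 (0.52). Pan-myeloid genes such as Ptprc are also expressed by leukocytes from blood, whose markers rose as given above.

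**Figure D3:**
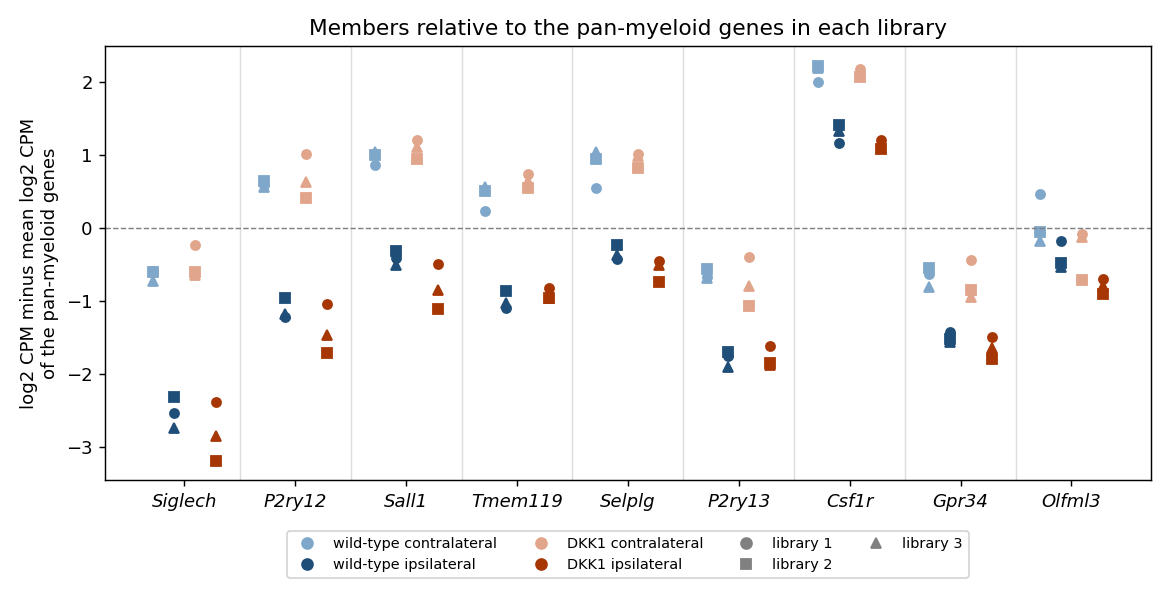
Log2 CPM of each gene minus the mean log2 CPM of the 14 pan-myeloid genes, in each of the 12 libraries (marker shape gives the library number, colour the group), ordered by the shift averaged over both genotypes. Lesioned libraries lie below intact ones for every gene in wild-type mice and for all but Olfml3 in DKK1 mice. The same held for 92.8% and 94.2% of all tested genes.

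Between genotypes in the lesioned hemisphere, no member passed by edgeR, against 2.37% of all tested genes. Tmem119 alone had an unadjusted p under 0.05 (1 of 9, against 20.9% of all tested genes), and it alone passed by DESeq2 (1 of 9, against 6.5%) and by limma-voom (1 of 9, against 3.94%). Of all genes called by edgeR 64.3% were higher in DKK1 mice, 50% with upper-quartile scaling, and 42.4% by limma on the deposited TPM. Tmem119 was 1.46-fold higher in DKK1 lesions (0.55 ± 0.14, adjusted p = 0.0654), at 56.6 ± 2.61 against 38.7 ± 7.69 CPM (SD, n = 3). In this comparison the block joined equal replicate numbers of both genotypes, which are different mice with no stated tie. That block gave an adjusted p of 0.0171 for Tmem119 (0.57 ± 0.10) by edgeR and passed no other member, against 3.06% of tested genes. P2ry13 (0.45 ± 0.23, adjusted p = 0.287) and Tmem119 were the 2 members with every DKK1 lesion above every wild-type lesion, a pattern that 13.3% of tested genes shared. Csf1r (0.29 ± 0.14), Gpr34 (0.29 ± 0.25), Selplg (0.24 ± 0.14), Siglech (0.19 ± 0.25), P2ry12 (0.18 ± 0.23), Sall1 (0.05 ± 0.19) and Olfml3 (−0.0011 ± 0.34) did not pass. The median over the members was 0.24, and that of all tested genes 0.021.

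Wild-type ipsilateral 1 weighed on this comparison. Its Olfml3 level of 89.6 CPM was above the highest DKK1 lesion at 66.2 CPM. Without this library Tmem119 (0.72 ± 0.12, adjusted p = 0.00454) and Selplg (0.42 ± 0.12, adjusted p = 0.0377) passed by edgeR, as did 14.3% of all tested genes. A further fit left out library 1 of both wild-type groups, chosen after seeing that it was the highest for every member. Leaving it out lowers the wild-type level of each member in advance, so this fit is no separate support. DKK1 contralateral 1, also highest for every member, was kept. In this fit 5 of 9 members were higher in DKK1 lesions: P2ry13 (0.71 ± 0.17), Tmem119 (0.72 ± 0.09), Csf1r (0.44 ± 0.08), Gpr34 (0.58 ± 0.16) and Selplg (0.41 ± 0.11). In that fit 18.3% of all tested genes passed. Without wild-type contralateral 1 alone Tmem119 had an adjusted p of 0.0469 by edgeR, where 2.49% of all tested genes passed.

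**Figure D4:**
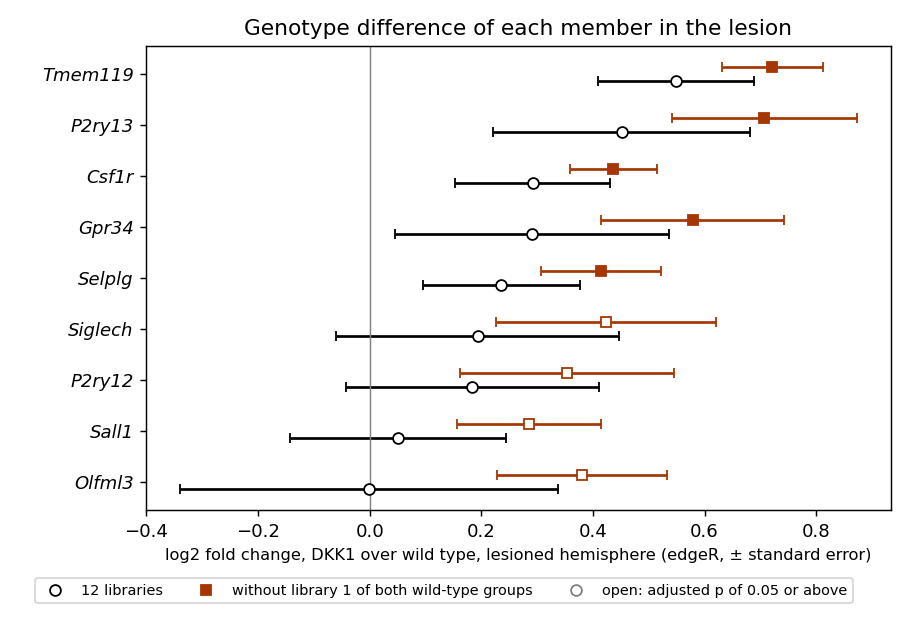
Log2 fold change (± standard error, edgeR) of each gene, DKK1 over wild type in the lesioned hemisphere, with all 12 libraries (circles) and without library 1 of both wild-type groups (squares); open symbols have an adjusted p of 0.05 or above. All circles are open, and the squares of Tmem119, P2ry13, Csf1r, Gpr34 and Selplg are filled. The libraries left out for the squares were chosen after seeing the data and were highest for every member.

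Other microglial genes gave a mixed picture in the same comparison. Of the 18 disease-associated genes 3 rose in DKK1 lesions, Apoe (0.53 ± 0.11) and the lysosomal proteases Ctsd (0.62 ± 0.12) and Ctsb (0.50 ± 0.11). Of the 25 further homeostatic genes 1 fell, the Fc receptor-like gene Fcrls (−1.86 ± 0.40, adjusted p = 0.0397), which stood at 88.2 CPM in wild-type and 24.3 CPM in DKK1 lesions. Fcrls was also at 19.4 and 5.22 CPM in the intact hemispheres (−1.91, adjusted p = 0.12). Cx3cr1 (0.29 ± 0.26), Aif1 (0.51 ± 0.29), Trem2 (0.47 ± 0.25), Csf1 (0.29 ± 0.15), Tgfb1 (0.50 ± 0.24) and Tgfbr1 (0.32 ± 0.16) did not pass. The lymphocyte genes Ms4a1 (1.53 ± 0.27) and Pax5 (1.504 ± 0.32), the myeloid and lymphoid actin regulator Coro1a (0.29 ± 0.06), the border macrophage lectin Cd209f (1.25 ± 0.29) and the endothelial junction gene Pecam1 (0.51 ± 0.08) were higher in DKK1 lesions, and their part in the members' values was not tested. Cd209f was the only 1 of the 14 border macrophage and monocyte markers called. Its level was low (0.47 CPM in wild-type and 1.13 CPM in DKK1 lesions). In the intact hemisphere Cd209f differed by 1.40 ± 0.34 (edgeR adjusted p = 0.115), so the difference was not particular to the lesion.

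In the intact hemisphere no member differed by genotype by edgeR (0 of 9 at an unadjusted p under 0.05, 0 by DESeq2 and 0 by limma-voom), against 0.88% of all tested genes by edgeR and 6.08% at an unadjusted p under 0.05. Differences ran from −0.66 for Olfml3 (± 0.37, adjusted p = 0.973) to 0.04 for Tmem119 (± 0.15). Without wild-type contralateral 1 the difference of Olfml3 was −0.10 ± 0.30. Within 5 Mb of a member, 0 to 2 other tested genes passed in the intact genotype comparison. The 2 were Mbnl1 and Supt20 near P2ry12 and P2ry13 (of 47 tested genes, 4.26%), and Zfp605 was near Tmem119 and Selplg (of 129, 0.78%). Over all tested genes the share was 0.88%.

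The difference between lesion responses, DKK1 minus wild type, was above 0 for each of the 9 members and passed for none by edgeR (0 by DESeq2 and 0 by limma-voom), against 0.00568% of all tested genes. At an unadjusted p under 0.05 it was 2 of 9, against 9.59%. It was largest for P2ry13 (0.73 ± 0.34, adjusted p = 0.532) and smallest for Sall1 (0.11 ± 0.28). Tmem119 (0.51 ± 0.20, adjusted p = 0.487) and Csf1r (0.48 ± 0.20, adjusted p = 0.503) were the 2 with an unadjusted p under 0.05. With genotype-by-number blocks they passed by edgeR (Tmem119 0.52 ± 0.11, adjusted p = 0.0491, and Csf1r 0.48 ± 0.09, adjusted p = 0.0403), against 1.64% of all tested genes. Without wild-type contralateral 1 the values for P2ry12, Sall1 and Siglech were −0.00073, −0.08 and −0.06. With all libraries the median was 0.48 over the members and 0.015 over all tested genes. The share of all tested genes above 0 was not counted. The members vary together within groups, as given below, so their 9 signs are not separate observations.

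Within groups the members rose and fell together from library to library. After the group mean was taken out, the deviation of each member correlated with the mean deviation of the other 8 at r = 0.87 (Selplg) to 0.96 (P2ry13) over the 12 libraries, which share depth and scaling with each other and in which 4 group means were fitted. Without wild-type contralateral 1, the library farthest from its group, r was 0.84 (Siglech) to 0.94 (P2ry13). The ranking of the other 17603 genes left out predicted gene models. Those most like the members were Rasa3 (r = 0.99), Dock1 (0.98), Gng11 (0.97), Aif1 (0.97), Sh3kbp1 (0.97), Magt1 (0.97), Cx3cr1 (0.97) and Slc38a3 (0.97). They include the microglial genes Aif1 and Cx3cr1. The most opposite were Mrpl41 (−0.99), Ppp2r5b (−0.99), Gba2 (−0.98) and Camkk1 (−0.97). These r describe the 12 libraries and were not tested.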

How the data were processed

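RNA sequencing libraries of bulk mouse brain (3 per group, 12 in all) were prepared from mRNA with a directional kit, per the labels' protocols. The mm10 build and the tools HOMER 4.11, STAR 2.7.0f and DESeq2 are named in the submitters' processing notes, whose text on roles and strand is not given in the sources used here. Of the deposited tables, 1 holds raw read counts per gene and 1 holds TPM, which the authors scaled for transcript length and depth.

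Counts were tested with edgeR 4.0.16 (quasi-likelihood, robust, TMM scaling) in R 4.3.3 over all 12 libraries, after a filter with a minimum count of 10. Benjamini-Hochberg adjustment covered the 17612 genes tested. limma 3.58.1 on log2(TPM + 0.1), limma-voom and DESeq2 1.42.0 were alternatives. Fits were checked on simulated counts. Members and gene lists were chosen with earlier results of these data known. All genes of the lists were counted. Named are the 9 members, from each list up to 4 genes with the smallest p over the lesion comparisons and up to 2 over the others, the fixed genes Csf1, Il34, Tgfb1, Tgfbr1, Cx3cr1, Fcrls, Aif1 and Trem2, and the 8 most and 4 least like the members. Some genes that this rule names, and levels relative to 1 further reference gene, are not reported here.

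Replicate numbers paired the hemispheres only in the replicate block and in the sign-change test of member pairs. The main fit and the test by regroupings did not use them. The pairing was tried because libraries of 1 number deviated together over genes. There r was 0.487, 0.310 and 0.297 for the wild-type pairs and 0.276, 0.125 and 0.105 for the DKK1 pairs, each over 0.1. Over the members alone r was 0.84, 0.46 and 0.56 for the wild-type pairs. For the DKK1 pairs it was 0.41, −0.05 and 0.24, so the members of DKK1 number 2 did not deviate together. The labels do not state a shared animal. For the genotype comparisons the block joined equal numbers of both genotypes, and these r values give no basis for that.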

Additional observations from a re-analysis of the deposited data

How the results depend on the processing

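The lesion calls of members ranged from 7 to 8 in wild-type and from 7 to 9 in DKK1 mice when 1 library was left out. Of all tested genes 25.1% to 37.5% were then called in wild-type and 41.1% to 51.2% in DKK1 mice, in either direction. Between genotypes in the lesion, the number of members called was 0 with all libraries, 1 by DESeq2, 1 by limma-voom, 1 with the replicate block, 5 without number 1 of both wild-type groups (chosen after seeing the data), and 0 to 2 when 1 library was left out. Over all tested genes the shares were, in that order, 2.37%, 6.5%, 3.94%, 3.06%, 18.3% and 0.668% to 14.3%. For the difference between lesion responses the number of members called was 0, 2 with the replicate block, and 0 to 0 with 1 library left out. All tested genes gave 0.00568%, 1.64% and 0% to 2.21% for this difference. This difference could not be fitted with only 2 groups. Members lower in every lesioned library relative to the pan-myeloid mean numbered 9 and 8 (wild type and DKK1, against 92.8% and 94.2% of all tested genes), and 5 and 5 relative to Cx3cr1 (80% and 87.3%), a reference chosen after seeing the data. Member pairs whose ratio differed numbered 31, and 30 with the replicate block, and pairs of other genes were not tested. The block changed no other member call than those given above.

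Some small differences changed sign. Between genotypes in the lesion Olfml3 was 0.068 by limma-voom, 0.095 with the block, 0.026 on TPM, 0.38 without number 1 of both wild-type groups, and −0.20 to 0.38 with 1 library left out; Sall1 was −0.067 to 0.29. In the intact hemisphere, without number 1 of both wild-type groups, P2ry12 was 0.18, Sall1 0.13, Siglech 0.25, Gpr34 0.018 and Selplg 0.011. With 1 library left out the ranges were −0.31 to 0.18, −0.17 to 0.13, −0.24 to 0.25, −0.49 to 0.019 and −0.15 to 0.011, and −0.058 to 0.17 for Tmem119. For the difference between lesion responses they were −0.00073 to 0.47 (P2ry12), −0.085 to 0.34 (Sall1) and −0.060 to 0.47 (Siglech). The cause was not tested.

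Over all genes, 417 passed between genotypes in the lesion, 119 to 2551 with 1 library left out, 1145 by DESeq2, 694 by limma-voom, 236 on TPM, 97 with only 2 groups and 3244 without number 1 of both wild-type groups. In the intact hemisphere 155 passed, 94 to 197 with 1 library left out and 267 by DESeq2. For the difference between responses 1 passed, 0 to 393 with 1 library left out, 65 by DESeq2, 0 by limma-voom, 3 on TPM, 288 with the block and 264 without number 1 of both wild-type groups. The lowest member level in any library was 6.64 CPM (P2ry13, DKK1 contralateral 2).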
